A study of Homo sapiens with 9 samples.

Results

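The array used to measure N6-methyladenosine (m6A) in PC9 cells carries 60541 RNA probes, and 50 of them stand on the array as 10 separate spots each and are named by a RefSeq transcript in the scanner files. These 50 probes, each for a different gene, are described here. All 50 accessions were matched to a gene symbol. The genes were picked by how their probes are named and not by any measured value, though with earlier results of these data known. The repeated spots give a measurement error for each gene on each array. Of the 50 genes, 44 were well above background in both RNA fractions on all 9 arrays, 3 more (SAA4, LMO2 and SERPIND1) were so in the unbound fraction only, and CFTR, ZAP70 and CD69 were well above background on no array.

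PC9 is an established human lung adenocarcinoma line. The cells were transfected at 15 nM with siALKBH5#1, siALKBH5#3 (different siRNAs against the m6A demethylase ALKBH5) or siNC, the control siRNA, and RNA was taken after 96 h from 3 biological replicates per group, each on 1 array. Apart from the siRNA, the labels give the groups the same line and handling. Total RNA was left whole and split by an anti-m6A antibody into a bound fraction (IP, labeled with Cy5) and an unbound fraction (Sup, labeled with Cy3), and both were hybridized to the same array. The methylation level is IP/(IP + Sup), in percent.

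m6A is written onto messenger RNA by a methyltransferase complex, removed by ALKBH5 or FTO, and read by proteins that alter the splicing, stability or translation of the transcript. ALKBH5 removes the methyl group from adenosine within RNA, and loss of the enzyme is known to leave more m6A on its target transcripts. Because the RNA is not fragmented, the level of a gene is the share of its molecules that the antibody held, not the number of methylated sites on a molecule. The 50 genes fall by their known roles into DNA replication and chromatin assembly (5 genes), DNA repair (7), mitosis and cell cycle (7), transcription and chromatin (9), RNA processing, translation and protein turnover (5), matrix, adhesion and cytoskeleton (5), signalling, transport and metabolism (7), and genes of blood cells or liver secretion (5).

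The ALKBH5 transcript, the m6A writers and readers, and the epithelial markers expected of PC9 are not among the 50 named genes, and other probes carry no gene name in the files used here, so neither the knockdown nor the cell type was checked on these arrays. Replicate 3 of siALKBH5#1 and replicate 3 of siNC stood apart from the other 7 arrays. The 3′ end of the GAPDH control transcript exceeded its 5′ end by 0.687 and 0.985 on the log2 Sup scale on these arrays, against 1.80 to 2.21 on the others. PGK1, the other control transcript, did not set them apart in Sup (6.58 and 6.64, against 6.02 to 6.92), and in IP its 3′ excess was the highest of the arrays (8.95 and 8.45, against 6.18 to 8.01). They also had the brightest IP spike-in signals (11.8 and 10.5 on the log2 scale, against 6.76 to 9.46) and the most spots with uneven background (12891 and 3445, against 22 to 765). Replicate 1 of siALKBH5#1 had a scan identifier of its own and the other arrays shared 1, which was taken here as 2 slides. RNA spots well above background made up 37.9% to 57.2% of an array in the IP channel and 67.3% to 86.6% in the Sup channel. The number of arrays limits the precision.

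The methylation level in siNC cells ranged over the 44 genes from 22.4% to 88.0%, with a median of 69.8% beside 51.2% for all RNAs with a level. Of the 44 genes, 37 lay above the median RNA, 29 lay in the highest 25% of all RNAs and 2 in the lowest 25%. The median percentile among all RNAs was 86.5. These levels rest on the spike-in scaling of the 2 channels. With each array and channel centred on its median RNA the median of the genes was 54.7%, and without scaling it was 55.1%. The 51.2% for all RNAs belongs to the spike-in scaling, so it cannot be set beside these values.

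ITGB3BP, a centromere protein that also binds nuclear receptors, had the lowest level. It was 28.2%, 22.2% and 16.7% on the 3 siNC arrays, a mean of 22.4% ± 5.72 (SD, n = 3). PRIM1, the catalytic subunit of the primase that starts DNA synthesis, followed with 43.6%, 37.6% and 36.0% (39.1% ± 3.99). The highest ITGB3BP array lay below the lowest PRIM1 array, and this was the 1 gap of 43 between neighbouring genes that exceeded the larger SD of the pair. POLR2A, the largest subunit of RNA polymerase II, read 35.7%, 45.0% and 44.6% (41.8% ± 5.30) and overlapped PRIM1.

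At the top stood genes of transcription and chromatin. BAZ1A, a subunit of the chromatin remodeler ACF, read 91.5%, 89.2% and 83.3% on the siNC arrays (88.0% ± 4.23, n = 3). RPAP3, a co-chaperone in the assembly of RNA polymerase II, read 93.0%, 87.9% and 81.3% (87.4% ± 5.85). ATAD2, a bromodomain protein with an ATPase domain, read 92.9%, 89.1% and 78.5% (86.8% ± 7.44). The 3 genes could not be ordered, since their means differed by less than the SD of each.

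**Figure D1:**
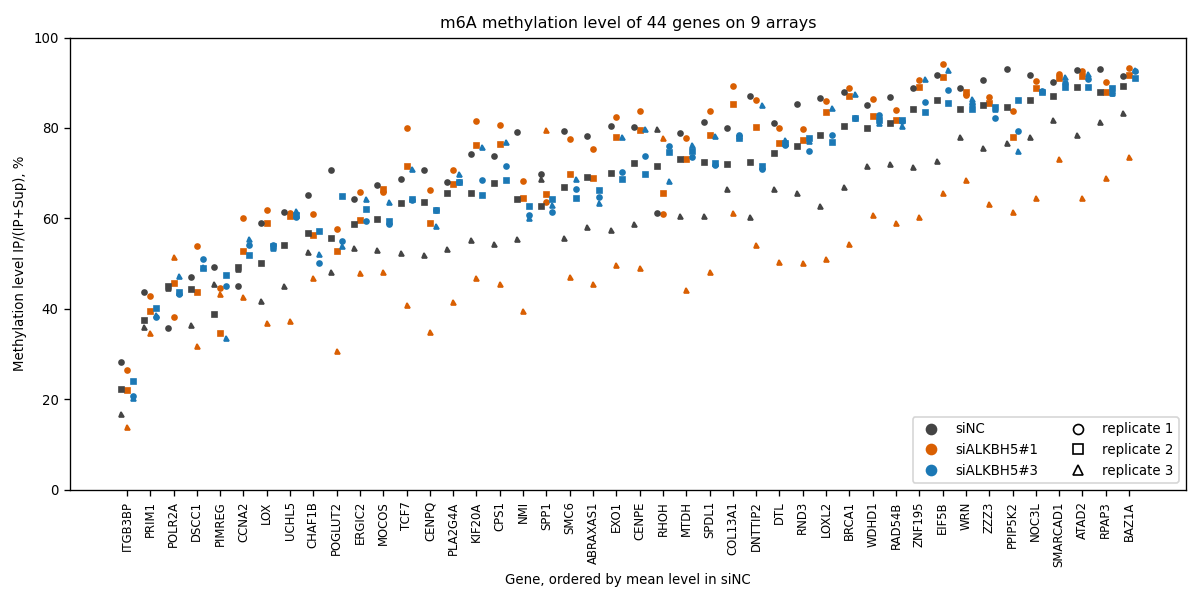
Methylation level in percent (y axis) of the 44 genes detected in both fractions (x axis, ordered by the siNC mean) on each of the 9 arrays, with 1 point per array. In siNC the mean climbs from 22.4% for ITGB3BP to 88.0% for BAZ1A, and replicate 3 of siALKBH5#1 and of siNC (triangles) lies below its group's other arrays for most genes, PIMREG, POLR2A, RHOH and SPP1 being exceptions in both groups and CCNA2 in siNC.

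By role, the median siNC level was 82.6% for the 8 measured genes of transcription and chromatin, 78.5% for 7 DNA repair genes, 73.3% for 5 genes of RNA processing and translation, 72.9% for 5 matrix genes, 63.8% for 6 genes of signalling and metabolism, 62.1% for 7 mitotic genes and 58.1% for 5 replication genes. Transcription and chromatin ran from POLR2A at 41.8% to BAZ1A at 88.0%, and replication from PRIM1 at 39.1% to WDHD1, which couples the replicative helicase to DNA polymerase, at 78.9% ± 6.72. Among the roles with more than 1 gene, DNA repair had the highest lower end, and it ran from 67.2% for SMC6, a subunit of a DNA-bound SMC complex, to 86.3% for SMARCAD1, a remodeler that acts at broken ends. BRCA1, the tumor suppressor of homologous recombination, read 87.9%, 80.5% and 67.1% (78.5% ± 10.6).

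The order of the genes was shared by the arrays. Over the 36 pairs of arrays, Spearman's rank correlation of the level across the 44 genes lay between 0.704 and 0.987 with a median of 0.929, and over all RNAs between 0.283 and 0.952. These coefficients describe probes that share the same arrays and scaling. Across the same genes the siNC level had a Spearman's rank correlation of 0.470 with the genomic span of the gene and of -0.304 with its Sup signal, and the latter enters the level itself.

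The error of reading an array was small beside the spread between arrays. Of the 4500 spots of the 50 genes on 9 arrays, 332 were marked as outliers by the scanner software and left out, and none was saturated. The median SE of a spot mean was 0.940 percentage points for the level, 0.0324 on the log2 scale for Sup and 0.0613 for IP. The median SD between replicate arrays was 9.48 percentage points for the level and, after median centring, 0.430 for Sup and 0.675 for IP. With spike-in scaling the SD between arrays was 0.738 for Sup and 1.42 for IP. The SD between arrays exceeded the SE of the spot mean for 44 of 44 genes in level, 47 of 47 in Sup and 44 of 44 in IP, with median ratios of 11.2, 13.1 and 10.5. Spots of a probe share 1 hybridized sample, so they say nothing of the spread between cultures.

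Within an array the spots of BAZ1A and ATAD2 scattered least in level, with an SD of 1.31 and 1.54 percentage points. The spots of LOX (5.37) and PLA2G4A, the cytosolic phospholipase A2 (4.57), scattered most. PLA2G4A read 68.0%, 65.5% and 53.2% in siNC. LOX read 59.0%, 50.2% and 41.7% there, 61.9%, 58.9% and 36.9% with siALKBH5#1 and 54.2%, 53.9% and 53.5% with siALKBH5#3. PRIM1 was the gene whose arrays differed least for its spot error, with an SD between arrays of 3.35 percentage points against a spot SE of 1.42.

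**Figure D2:**
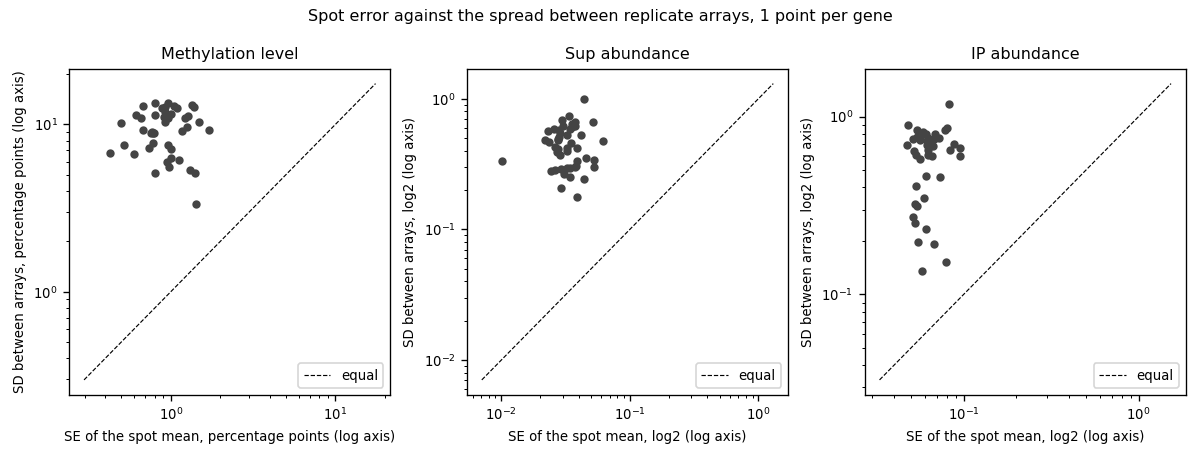
SD between replicate arrays (y axis, log axis) against the SE of the mean over a probe's spots (x axis, log axis) for the level in percentage points and for median-centred Sup and IP abundance in log2 units, with 1 point per gene and a dashed line of equality. All points lie above the line, at a median ratio of 11.2, 13.1 and 10.5.

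The first comparison asks whether the m6A level of these genes changed when ALKBH5 was targeted. None of the 44 genes passed the threshold of the methods (a fold change above 1.5 with an unadjusted P under 0.01 by limma) with siALKBH5#1 or with siALKBH5#3, where 0.268% and 0.147% of all 19781 RNAs passed, and no gene had an unadjusted P under 0.05 by limma with either siRNA, beside 5.06% and 2.61% of all RNAs. A level cannot exceed 100%, so the 26 genes with a siNC mean above 66.7% had no room for a 1.5-fold rise, and for them the threshold could be met by a fall alone. The methods' t-test called 0 genes with each siRNA too, with 0 and 1 genes at an unadjusted P under 0.05, beside 5.56% and 6.53% of all RNAs in the same test. Both comparisons share the siNC arrays. With siALKBH5#1 the median log2 change of the genes was -0.06 beside -0.004 for all RNAs, with 8 genes above 0 and 36 below. Under siALKBH5#3 it was 0.06 beside 0.06, with 35 above and 9 below. Median centring gave -0.05 for the genes with siALKBH5#1, with 12 above 0 and 32 below, and 0.02 with siALKBH5#3 beside -0.012 for all RNAs, with 27 above and 17 below. SEs of the log2 change lay between 0.129 and 0.245.

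Per array, the median level of the 44 genes was 79.2%, 70.8% and 59.5% in siNC, 80.0%, 76.3% and 49.3% with siALKBH5#1, and 71.2%, 69.3% and 76.0% with siALKBH5#3. The group means were 69.8% ± 9.85, 68.6% ± 16.8 and 72.2% ± 3.42 (SD, n = 3). The lowest arrays of siNC and siALKBH5#1 were the replicates that stood apart above, and the 3 groups overlapped.

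The lowest P with siALKBH5#1 belonged to POGLUT2, a glucosyltransferase of the endoplasmic reticulum that acts on EGF repeats. Its level was 70.7%, 55.6% and 48.2% in siNC and 57.5%, 52.8% and 30.7% with siALKBH5#1, so the groups overlapped (log2 change -0.34, SE 0.23, unadjusted P = 0.171 by limma). Without replicate 3 of siALKBH5#1 it was -0.0593. With median centring the change was -0.45 (unadjusted P = 0.0404, adjusted P = 0.666). PPIP5K2, an inositol pyrophosphate kinase, read 93.1%, 84.8% and 76.8% in siNC and 83.8%, 78.1% and 61.4% with siALKBH5#1 (log2 change -0.20, SE 0.15, limma unadjusted P = 0.213), and the change was -0.0654 without the same array. CENPQ, a protein of the inner kinetochore, read 70.7%, 63.5% and 52.0% against 66.2%, 58.9% and 35.0% (log2 change -0.26, SE 0.22, limma unadjusted P = 0.264). That change was 0.0204 without replicate 3 of siALKBH5#1 and -0.10 without replicate 3 of both groups. Set against the siNC array of the same number, the siALKBH5#1 array was lower in 3 of 3 pairs for each of these genes. This held for 9 of the 44, beside 15.8% of the 17849 RNAs with a value on all 6 arrays, while 16 genes were lower in 2 pairs, 18 in 1 and 1 in 0. With the replicate number as a block the limma unadjusted P was 0.0894 for POGLUT2, 0.173 for PPIP5K2 and 0.160 for CENPQ.

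Arrays of siALKBH5#1 and siNC did not overlap in level for 0 of the 44 genes, beside 10.7% of all RNAs, and those of siALKBH5#3 and siNC did not overlap for 2, beside 13.9%. Both lay above siNC. DSCC1, a subunit of the clamp loader for sister chromatid cohesion, read 47.0%, 44.4% and 36.3% in siNC and 50.9%, 49.1% and 49.3% with siALKBH5#3 (log2 change 0.23, SE 0.19, limma unadjusted P = 0.235). CCNA2, the cyclin of S phase and G2, read 45.1%, 49.2% and 48.8% against 54.1%, 51.9% and 55.5% (log2 change 0.17, SE 0.14, limma unadjusted P = 0.25). UCHL5, a deubiquitinase of the proteasome, had the third lowest P, with 61.4%, 54.2% and 45.1% against 60.3%, 60.7% and 61.6% (log2 change 0.20, SE 0.20, limma unadjusted P = 0.340). Without replicate 3 of siNC the change was 0.124 for DSCC1 and 0.0776 for UCHL5. In the direct comparison of siALKBH5#3 with siALKBH5#1, 0 of 44 genes passed, beside 0.0556% of all RNAs.

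The second comparison asks whether the amounts of the transcripts changed. Signals in each fraction are given per array as the log2 difference from the median RNA of that array, which removes the brightness of the array and allows comparison of 1 gene between arrays, not of genes with each other. Statements that abundance arrays overlapped siNC, or lay above or below it, refer to these centred signals. Several did not hold with spike-in scaling, as given below. Tests are given both with a scaling by spike-in RNA, the kind the methods name, and with median centring. With spike-in scaling the median log2 change in Sup was -0.04 for the 47 genes and -0.16 for all RNAs under siALKBH5#1, and 0.12 and 0.14 under siALKBH5#3. In IP it was -0.15 for the 44 genes and 0.02 for all RNAs under siALKBH5#1, and 0.18 and 0.32 under siALKBH5#3, where 34 of the 44 lay above 0. The direction of the medians under siALKBH5#3 turned with the scaling. Median centring gave -0.06 for the 47 genes in Sup, beside -0.04 for all RNAs, and -0.16 for the 44 in IP, beside -0.013, with 15 above 0 and 29 below. Under siALKBH5#1 it gave -0.02 in Sup, beside -0.16 for all RNAs, and -0.16 in IP, beside -0.012. In bulk samples, fewer cells that express a gene and less RNA per cell cannot be told apart.

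With spike-in scaling, 1 of 47 genes passed the threshold in Sup with siALKBH5#1, beside 0.106% of all 39710 RNAs, and 0 of 47 with siALKBH5#3, beside 0.277%. In IP 0 of 44 genes passed with either siRNA, beside 0.268% and 0.242% of 19795 RNAs. With median centring, 3 of 47 passed in Sup with siALKBH5#1 (background 1.11%) and 1 with siALKBH5#3 (1.73%), and in IP 2 of 44 (0.849%) and 1 (1.02%). With all 9 arrays, no gene had an adjusted P under 0.05 against siNC with either scaling. With spike-in scaling and without replicate 3 of siALKBH5#1, the adjusted P by limma was 0.00245 for LOX and 0.0157 for COL13A1 in Sup and 0.0168 for both in IP. Leaving out that array raised the share of all RNAs past the threshold to 5.62% in Sup and 15.4% in IP with siALKBH5#1, and to 2.94% and 2.81% with siALKBH5#3. The genes then past it were COL13A1, LOX, PPIP5K2, RAD54B and SPP1 in Sup and COL13A1 and LOX in IP with siALKBH5#1, and LMO2, RND3 and SAA4 in Sup and CHAF1B in IP with siALKBH5#3. With median centring and without it, 3 genes passed in Sup with siALKBH5#1 (COL13A1, LOX and SAA4, beside 6.1%) and 2 in IP (COL13A1 and LOX, beside 10.9%). With siALKBH5#3 these were 7 in Sup (CENPQ, CHAF1B, KIF20A, LMO2, LOX, RND3 and SAA4, beside 5.16%) and 5 in IP (BAZ1A, CENPQ, CHAF1B, PPIP5K2 and SPP1, beside 4.35%). At an unadjusted P under 0.05, limma with spike-in scaling gave 2 genes in Sup and 0 in IP with siALKBH5#1, beside 0.546% and 2.28% of all RNAs, and 0 and 1 with siALKBH5#3, beside 1.19% and 1.14%. The methods' t-test gave 0 and 0 genes with siALKBH5#1, beside 1.07% and 3.57% of all RNAs, and 8 and 2 with siALKBH5#3, beside 7.11% and 6.56%.

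The genes of the matrix and of adhesion held the gene with the widest shift. LOX, lysyl oxidase, cross-links collagen and elastin outside the cell. Its Sup signal on the 3 siNC arrays was -2.10, -2.39 and -2.64 on the log2 scale relative to the median RNA. The siALKBH5#1 arrays read -0.09, 0.04 and -1.15, and those of siALKBH5#3 read -3.03, -3.31 and -2.91. In these centred values the 3 groups did not overlap, with siALKBH5#1 above and siALKBH5#3 below siNC. With spike-in scaling both siRNAs overlapped siNC, which read -3.66, -4.36 and -4.81. The siALKBH5#1 arrays then read -1.66, -1.37 and -3.91 and those of siALKBH5#3 read -4.80, -5.06 and -4.55.

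In Sup, LOX rose with siALKBH5#1 by 1.97 on the log2 scale (SE 0.63, a fold of 3.91, unadjusted P = 0.00838 by limma, adjusted P = 1 over all RNAs). Median centring gave 1.98 (SE 0.33, unadjusted P = 8.8e-05, adjusted P = 0.215), and its call held when each of the 9 arrays was left out, while with spike-in scaling it was lost without 7 of the 9, siNC replicate 1 and siALKBH5#1 replicate 3 being the exceptions, and the change ranged from 1.5 without replicate 2 of siALKBH5#1 to 2.76 without its replicate 3. With siALKBH5#3 the change was -0.52 (SE 0.63, limma unadjusted P = 0.424) and after centring -0.70 (SE 0.33, unadjusted P = 0.0592). The first was smaller without siNC replicate 1 and larger without siNC replicate 3.

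The IP fraction of LOX read -1.86, -2.45 and -2.91 in siNC, 0.10, 0.26 and -1.33 with siALKBH5#1 and -2.96, -3.26 and -2.98 with siALKBH5#3. Its siALKBH5#1 arrays lay above all of siNC after centring but overlapped siNC with spike-in scaling. The log2 change with siALKBH5#1 was 2.10 (SE 1.00, limma unadjusted P = 0.0668), ranging from 1.44 without replicate 2 of siALKBH5#1 to 3.35 without its replicate 3, where it passed. Median centring gave 2.08 (SE 0.47, limma unadjusted P = 0.00173, adjusted P = 1). The level of LOX was 50.3% ± 8.61 in siNC and 52.6% ± 13.6 with siALKBH5#1.

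COL13A1, a collagen that spans the cell membrane, read -3.94, -3.73 and -3.86 in Sup of siNC. With siALKBH5#1 it was -2.47, -2.08 and -3.06, above all siNC arrays. The siALKBH5#3 arrays read -3.90, -4.11 and -4.13. With spike-in scaling the siALKBH5#1 arrays (-4.04, -3.49 and -5.82) overlapped those of siNC (-5.49, -5.70 and -6.03). The change with siALKBH5#1 was 1.29 (SE 0.56, limma unadjusted P = 0.0400) and did not pass, but ranged from 0.813 without replicate 2 of siALKBH5#1 to 1.98 without its replicate 3, where it passed. With median centring it was 1.31 (SE 0.28, limma unadjusted P = 0.000685, adjusted P = 0.400) and passed, also without each array in turn.

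In IP, COL13A1 read -2.22, -2.43 and -2.66 in siNC, 0.09, 0.15 and -1.82 with siALKBH5#1 and -2.22, -2.49 and -2.56 with siALKBH5#3. The median-centred change with siALKBH5#1 was 1.91 (SE 0.51, limma unadjusted P = 0.00478, adjusted P = 1), and the call was lost without replicate 1 or 2 of siALKBH5#1 or any replicate of siNC. With spike-in scaling it was 1.92 (SE 1.04, unadjusted P = 0.0987) and ranged from 1.22, without replicate 1 or 2 of siALKBH5#1, to 3.32 without its replicate 3, where it passed.

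SPP1, osteopontin, is a secreted glycoprotein that binds integrins. Its Sup signal was 4.68, 5.59 and 5.93 in siNC, 6.16, 6.49 and 5.67 under siALKBH5#1 and 4.91, 4.50 and 4.17 with siALKBH5#3, and siNC overlapped with both. In IP it was 5.62, 6.28 and 7.29 in siNC, 6.45, 7.10 and 8.21 with siALKBH5#1, and 5.40, 5.17 and 4.67 with siALKBH5#3, where every array lay below siNC. The IP change was 0.88 with siALKBH5#1 (SE 0.43, limma unadjusted P = 0.0737) and -0.97 with siALKBH5#3 (SE 0.43, unadjusted P = 0.0515). Replicate 3 was the highest array of its group in IP for siNC and siALKBH5#1, which are the arrays that stood apart. Without both of these arrays the IP change was 1.33 with siALKBH5#1 (SE 0.43, unadjusted P = 0.00192 by limma), which passed, and -0.79 with siALKBH5#3 (unadjusted P = 0.0437). With spike-in scaling and without 1 array at a time, the IP change lay between 0.59 and 1.15 and between -1.09 and -0.79, and did not pass. With median centring the IP change with siALKBH5#3 was -1.31 (SE 0.55, limma unadjusted P = 0.0424). It passed without replicate 3 of siALKBH5#1. Without the same array, the spike-scaled Sup change with siALKBH5#1 passed too.

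The remaining matrix genes did not move like LOX. LOXL2, a relative of LOX with the same chemistry, read 1.39, 1.60 and 2.89 in Sup of siNC and 1.40, 1.60 and 2.76 with siALKBH5#1 (median-centred change -0.04, SE 0.45, limma unadjusted P = 0.925). RND3, a regulator of the actin cytoskeleton, read 1.59, 1.58 and 1.88 in siNC and 2.48, 2.18 and 2.46 with siALKBH5#3, with no overlap. Its change was 0.87 (SE 0.55, limma unadjusted P = 0.135), or 0.69 with centring (SE 0.27, unadjusted P = 0.0252). Of the 5 matrix genes, relative to all RNAs and with median centring, 5 lay above 0 in Sup with siALKBH5#1 (median 0.86) and 1 with siALKBH5#3 (median -0.37). In IP 3 of 5 lay above 0 with siALKBH5#1 (median 0.87) and 2 with siALKBH5#3 (median -0.33).

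**Figure D3:**
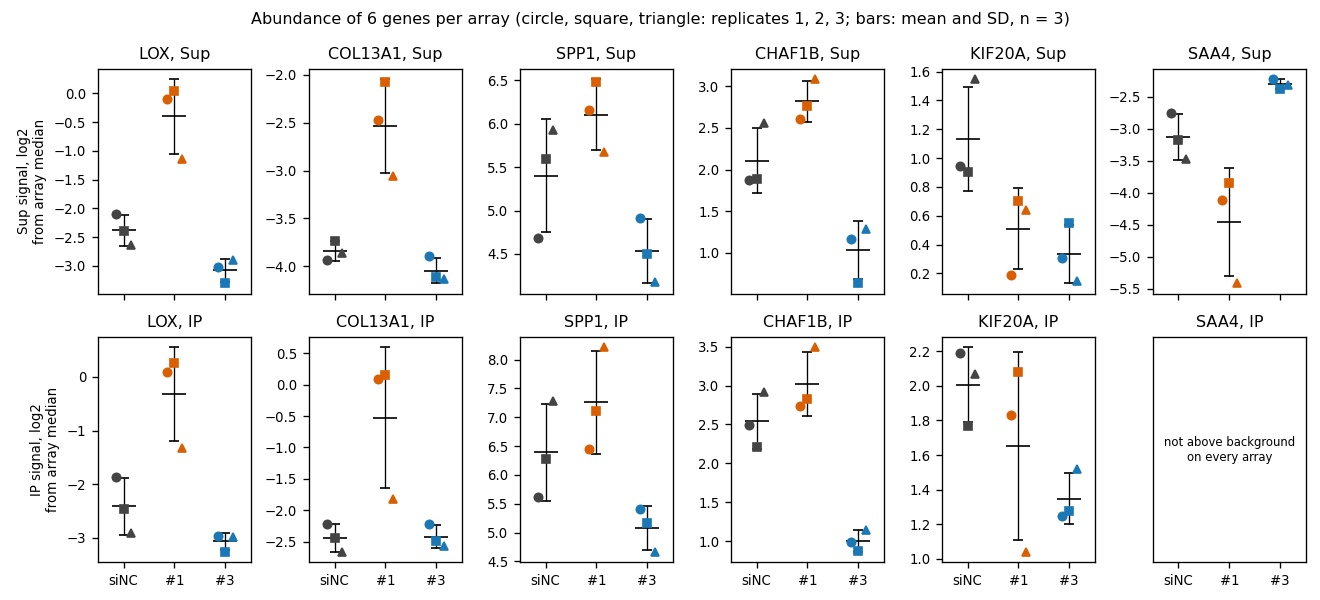
Sup (upper row) and IP (lower row) signal as the log2 difference from the array's median RNA for 6 genes, with 1 symbol per array, black bars for mean and SD (n = 3), and siALKBH5#1 and siALKBH5#3 abbreviated as #1 and #3. LOX and COL13A1 lie above siNC with siALKBH5#1 in both fractions, CHAF1B lies below siNC with siALKBH5#3 in both, and the Sup signal of SAA4 lies below siNC with siALKBH5#1 and above it with siALKBH5#3.

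Among the 5 genes of DNA replication and chromatin assembly, CHAF1B was the 1 past the threshold in any comparison with siNC. CHAF1B is a subunit of chromatin assembly factor 1, which deposits histones behind the replication fork. Replication genes are commonly regulated by E2F factors, whose motif TTCCCGC was therefore searched, on both strands, in the RefSeq promoters of GRCh38.p14 (250 bases before to 50 after a start). It stood in the promoters of 9 of the 40 genes matched, beside 6.55% of the 35116 promoters in the table, and of the 5 replication genes the 4 with a promoter in the table held it. The remaining holders, BRCA1, NOC3L, POLR2A, SPDL1 and ZZZ3, have other roles. CCAAT, the motif of NF-Y, was searched in the same way and stood in those of 19 of the 40 genes, beside 34.6% of all promoters. A gene may have several promoters in the table, so the shares of genes and of promoters are not the same measure. A window of 30 bases around the E2F motif is shown for the 4 replication genes, 5′ to 3′ on the strand of the gene, with the motif or its reverse complement GCGGGAA in capitals.
CHAF1B (chr21:36385379-36385408, plus strand): gcctgcggcgcGCGGGAAgcggcgcgcgct
PRIM1 (chr12:56752329-56752358, minus strand): cggccgtgctgTTCCCGCcaattcctgtgg
WDHD1 (chr14:55027059-55027088, minus strand): cgagccgaagcGCGGGAAgcagctcttgtg
DTL (chr1:212035629-212035658, plus strand): tggactccaggTTCCCGCggctgggagaaa
The motif began 2 bases before the start for CHAF1B, 24 before it for PRIM1, 108 before it for DTL and 22 after it for WDHD1. A match is a run of letters and does not show that a factor binds there. Whether E2F factors act on these genes was not tested.

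The Sup signal of CHAF1B was 1.87, 1.89 and 2.55 in siNC. Arrays of siALKBH5#1 read 2.60, 2.76 and 3.08 and those of siALKBH5#3 read 1.17, 0.64 and 1.29. In these centred values the 3 groups did not overlap and lay in opposite directions from siNC. With spike-in scaling siALKBH5#1 (1.04, 1.35 and 0.32) overlapped siNC (0.32, -0.08 and 0.38), and siALKBH5#3 stayed below siNC. With siALKBH5#3 the change was -0.90 (SE 0.46, limma unadjusted P = 0.0705), and with median centring CHAF1B fell by 1.08 (SE 0.29, unadjusted P = 0.00367, adjusted P = 0.399). That call was lost without replicate 2 of siALKBH5#3 or replicate 3 of siNC. With siALKBH5#1 the change was 0.69 (SE 0.46, unadjusted P = 0.151 by limma).

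The IP signal of CHAF1B was 2.5, 2.22 and 2.91 in siNC, 2.74, 2.83 and 3.49 under siALKBH5#1 and 0.99, 0.87 and 1.14 with siALKBH5#3. All siALKBH5#3 arrays lay below siNC by more than 1 on the log2 scale. The change was -1.20 (SE 0.53, limma unadjusted P = 0.0494), and with median centring -1.54 (SE 0.33, unadjusted P = 0.00125, adjusted P = 0.635), a call that held without each array in turn. Its level was 58.1% ± 6.39 in siNC and 53.1% ± 3.63 with siALKBH5#3.

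The other replication genes did not pass with all 9 arrays. DTL, which marks replication proteins for destruction, read 0.12, -0.09 and 0.05 in Sup of siNC and -0.12, -0.16 and 0.04 with siALKBH5#3. WDHD1 read -0.35, -0.60 and -0.78 against -1.01, -1.13 and -0.76, and PRIM1 read 0.93, 0.65 and 0.51 against 0.63, 0.38 and 0.74. The groups overlapped for each of them in Sup, while in IP the PRIM1 arrays of siALKBH5#3 (-0.24, -0.38 and -0.20) lay below those of siNC (0.28, -0.15 and -0.11). Relative to all RNAs and with median centring, 5 of 5 replication genes lay below 0 with siALKBH5#3 in Sup (median -0.35) and in IP (median -0.27), and with siALKBH5#1 4 of 5 lay above 0 in Sup (median 0.41) but 2 of 5 in IP (median -0.03).

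In mitosis and cell cycle, KIF20A, a kinesin needed for cytokinesis, was the 1 gene of the 47 whose median-centred Sup arrays lay on the same side of siNC with both siRNAs and overlapped with neither, a pattern of 1.87% of all RNAs. Both comparisons share the siNC arrays. It read 0.94, 0.91 and 1.55 in siNC, 0.19, 0.70 and 0.64 with siALKBH5#1 and 0.30, 0.55 and 0.15 with siALKBH5#3. With spike-in scaling siALKBH5#1 (-1.38, -0.71 and -2.12) overlapped siNC (-0.61, -1.06 and -0.62), and siALKBH5#3 stayed below siNC. The log2 change was -0.64 (SE 0.47, limma unadjusted P = 0.195) and -0.62 (unadjusted P = 0.206), the first being -0.28 without replicate 3 of siALKBH5#1, and with median centring -0.62 (unadjusted P = 0.0461) and -0.80 (unadjusted P = 0.0148), none of which passed with all 9 arrays. In IP, KIF20A read 2.19, 1.77 and 2.07 in siNC, 1.83, 2.08 and 1.04 with siALKBH5#1 and 1.25, 1.28 and 1.52 with siALKBH5#3.

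CENPQ read 0.39, 0.32 and -0.22 in Sup of siNC, 0.26, 0.39 and -1.25 with siALKBH5#1 and -0.93, -1.09 and -0.48 with siALKBH5#3. The siALKBH5#3 arrays lay below siNC in both fractions, at -0.41, -0.57 and -0.26 against 1.38, 1.05 and 0.11 in IP. The Sup change was -0.82 (SE 0.70, limma unadjusted P = 0.267). CCNA2 in Sup read 1.94, 1.55 and 2.49 in siNC and 1.36, 1.37 and 1.36 with siALKBH5#3 (change -0.45, SE 0.44, limma unadjusted P = 0.323). Of the 7 mitotic genes 5 lay below all RNAs in Sup with siALKBH5#3 (median -0.39, centred) and 3 with siALKBH5#1 (median 0.13), and in IP 6 (median -0.33) and 4 (median -0.06). CENPE, a kinesin of the kinetochore, ITGB3BP and PIMREG, a mitotic regulator, overlapped siNC in both fractions with both siRNAs. SPDL1, which brings dynein to the kinetochore, did so apart from IP with siALKBH5#3, where its arrays lay above siNC. Markers of other cell types and of RNA quality other than the array control transcripts above could not be set beside these genes.

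After median centring, arrays of siALKBH5#1 and siNC did not overlap in Sup for 7 of the 47 genes, beside 7.79% of all RNAs. Of these, 3 lay above siNC (CHAF1B, COL13A1 and LOX) and 4 below (BAZ1A, KIF20A, SAA4 and ZNF195). With spike-in scaling the siALKBH5#1 and siNC arrays overlapped for each of the 7. Centred arrays of siALKBH5#3 did not overlap siNC for 17, beside 17.3% of all RNAs, 8 above and 9 below. With spike-in scaling BAZ1A among the 8 overlapped siNC, and among the 9 only CHAF1B and KIF20A stayed below. In IP, centred arrays did not overlap for 2 genes with siALKBH5#1 (LOX and COL13A1, beside 9.17%). With siALKBH5#3 they did not overlap for 11, beside 18%, 4 above and 7 below. Spike-in scaling left only CHAF1B and SPP1 of these IP cases apart from siNC, both with siALKBH5#3. After median centring, arrays of both siRNAs lay on opposite sides of siNC, with no overlap, for 5 genes in Sup, beside 0.932% of all RNAs. These were BAZ1A, CHAF1B, LOX, SAA4 and ZNF195. The pattern held for 1 gene in IP (LOX), beside 0.768%, and both comparisons share the siNC arrays. With spike-in scaling the siALKBH5#1 arrays overlapped siNC in each of these cases. Centred arrays of both siRNAs lay on the same side in IP for 0 genes, beside 2.02%.

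Genes of transcription and chromatin made up 5 of the 8 that lay above siNC in Sup with siALKBH5#3. BAZ1A read -0.77, -1.06 and -1.02 in siNC, -1.40, -1.15 and -2.66 with siALKBH5#1 and -0.52, -0.59 and -0.30 with siALKBH5#3. LMO2, an adaptor of transcription factors best known in blood cell development, read -2.03, -2.23 and -2.34, then -2.16, -2.06 and -3.75, then -1.01, -1.46 and -0.79. ZNF195, a zinc finger protein, read -0.62, -0.53 and -0.50, then -0.91, -0.67 and -1.27, then -0.06, 0.08 and -0.46. The siALKBH5#3 arrays lay above siNC for all 3, and those of BAZ1A and ZNF195 with siALKBH5#1 lay below. With spike-in scaling BAZ1A overlapped siNC with both siRNAs and ZNF195 with siALKBH5#1, while LMO2 and ZNF195 stayed above siNC with siALKBH5#3.

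With all 9 arrays, no gene of this role passed the threshold against siNC with either scaling. The change of LMO2 with siALKBH5#3 was 1.29 (SE 0.70, limma unadjusted P = 0.0892), and 1.11 with centring (SE 0.41, unadjusted P = 0.0207). Without replicate 3 of siALKBH5#1, which enters only through the estimate of the spread, both passed (limma unadjusted P = 0.000937, adjusted P = 0.105, and with centring unadjusted P = 0.000265, adjusted P = 0.0283), as did the change in a spike-in scaled fit of siALKBH5#3 and siNC alone. For ZZZ3, a subunit of the histone acetyltransferase complex ATAC, and RPAP3 the siALKBH5#3 arrays also lay above siNC, at 0.60, 0.37 and 0.72 against 0.00, -0.01 and 0.20 for ZZZ3 and at 0.07, -0.08 and 0.34 against -0.41, -0.41 and -0.25 for RPAP3. ATAD2, POLR2A and TCF7, a transcription factor of Wnt signalling, lay below siNC in the same comparison. Relative to all RNAs and with median centring, 6 of 9 genes of the role lay above 0 in Sup with siALKBH5#3 (median 0.44) and 4 of 8 in IP (median 0.0019). With siALKBH5#1 6 of 9 did so in Sup (median 0.16) and 2 of 8 in IP (median -0.33).

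Among the genes of RNA processing, translation and protein turnover no change passed in Sup or IP. EIF5B, the factor that joins the ribosomal subunits, read -1.32, -1.18 and -0.43 in Sup of siNC, -1.48, -1.16 and -1.47 with siALKBH5#1 and -0.88, -0.56 and -1.11 with siALKBH5#3. NOC3L, a protein of ribosome assembly, was the 1 gene of the role whose siALKBH5#3 arrays did not overlap siNC in Sup, at -0.01, -0.17 and 0.25 against 0.25, 0.33 and 0.42, where the nearest arrays were equal to 2 decimals. DNTTIP2, UCHL5 and POGLUT2 overlapped siNC in both fractions with both siRNAs. The role medians relative to all RNAs were 0.06 in Sup with each siRNA, and in IP -0.13 with siALKBH5#1 and -0.01 with siALKBH5#3 (median-centred).

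DNA repair genes likewise gave no call with all 9 arrays, while RAD54B passed in Sup with siALKBH5#1 without replicate 3 of that group (spike-in scaled log2 change 1.1, limma unadjusted P = 0.00671, adjusted P = 0.152). Their median relative to all RNAs was 0.13 in Sup with siALKBH5#1 and 0.04 with siALKBH5#3 (5 of 7 above 0 each, centred), and -0.19 and -0.11 in IP (1 and 2 of 7 above 0). BRCA1 read 0.52, 0.59 and 1.62 in siNC, 0.57, 0.80 and 1.04 with siALKBH5#1 and 0.70, 1.01 and 0.45 with siALKBH5#3. EXO1, an exonuclease of mismatch and break repair, read 0.92, 1.55 and 2.57, then 1.15, 1.96 and 2.91, then 1.74, 1.80 and 1.09. RAD54B, WRN, ABRAXAS1, SMC6 and SMARCAD1 likewise overlapped siNC with both siRNAs.

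In signalling, transport and metabolism, MTDH, a membrane protein that promotes tumor cell survival, lay above siNC with siALKBH5#3 in both fractions. It read 0.71, 0.63 and 1.06 in Sup of siNC and 1.25, 1.21 and 1.23 with siALKBH5#3, and 2.34, 2.0 and 1.89 against 2.56, 2.62 and 2.64 in IP. The IP change was 0.86 (SE 0.79, limma unadjusted P = 0.304, and 0.51 without replicate 3 of siNC), and 0.52 after centring (SE 0.30, unadjusted P = 0.119). PPIP5K2 lay below siNC in IP, at 1.16, 1.34 and 1.12 against 2.94, 2.34 and 1.70 (change -0.78, SE 1.09, limma unadjusted P = 0.492). After centring the change was -1.12 (SE 0.55, limma unadjusted P = 0.0720). With spike-in scaling it was smaller without siNC replicate 1 and larger without siNC replicate 3. PLA2G4A, MOCOS, which matures the molybdenum cofactor, ERGIC2, which cycles between endoplasmic reticulum and Golgi, and CPS1, the entry enzyme of the urea cycle, overlapped siNC in both fractions with both siRNAs. CFTR, the chloride channel, had a median Sup signal over its 90 spots of 1.65 intensity units.

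The 5 genes best known from blood cells or liver did not behave alike on the array. ZAP70, a kinase of T cell signalling, and CD69, an activation marker of lymphocytes, were well above background on no array, with median Sup spot signals of 0.571 and 0.884 intensity units. RHOH, described mainly in blood cells, was well above background on every array, with signals from 14637 to 36174 units in Sup and from 7595 to 99417 in IP. It read 6.23, 6.77 and 6.27 in Sup of siNC, 6.50, 6.66 and 5.74 with siALKBH5#1 and 6.63, 6.50 and 6.51 with siALKBH5#3. In IP it read 6.60, 8.03 and 8.45, then 6.64, 7.29 and 8.13, then 8.13, 7.88 and 7.34. RHOH overlapped siNC with both siRNAs, and its level was 70.8% ± 9.30 in siNC. In the authors' list of levels it was 55.0% ± 1.91 there, so the level of RHOH depends on the processing. The sequence of the probe was not used here, so whether it reads RHOH alone was not checked. NMI, a partner of MYC and STAT proteins that was named for its high mean siNC signal, read 3.57, 3.75 and 3.68 in Sup of siNC.

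SAA4, a serum amyloid A protein carried on lipoproteins, differed between the siRNAs. In Sup it read -2.76, -3.17 and -3.47 in siNC, -4.12, -3.85 and -5.42 with siALKBH5#1 and -2.22, -2.38 and -2.32 with siALKBH5#3, with no overlap between the 3 groups. With spike-in scaling siALKBH5#1 (-5.68, -5.26 and -8.18) overlapped siNC (-4.31, -5.14 and -5.64), and siALKBH5#3 stayed above siNC. The change with siALKBH5#1 was -1.34 (SE 0.68, limma unadjusted P = 0.0707) and -0.44 without replicate 3 of siALKBH5#1, and with median centring it fell by 1.33 (SE 0.38, unadjusted P = 0.00516, adjusted P = 0.767), a call lost without replicate 1 or replicate 2 of siNC. With siALKBH5#3 the change was 1.00 (SE 0.68, unadjusted P = 0.164 by limma). SAA4 was well above background in IP on 3 siNC, 0 siALKBH5#1 and 3 siALKBH5#3 arrays. Against the lowest signal well above background on each siALKBH5#1 array, its IP signal with siALKBH5#3 was at least 2.94-fold higher with median centring and at least 3.70-fold higher with spike-in scaling. That of siNC was at least 1.21-fold higher. SERPIND1, heparin cofactor II, read -2.22, -2.81 and -3.38 in Sup of siNC, -2.93, -3.18 and -3.89 with siALKBH5#1 and -3.26, -2.67 and -3.00 with siALKBH5#3, and was well above background in IP on no array.

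The siRNAs were also compared with each other, which does not use the siNC arrays other than for the estimate of the spread. With spike-in scaling 3 of 47 genes passed in Sup (background 0.554%) and 1 of 44 in IP (0.834%). LOX was lower with siALKBH5#3 than with siALKBH5#1 by a log2 difference of -2.49 (SE 0.63, limma unadjusted P = 0.00175, adjusted P = 0.969), CHAF1B by -1.59 (SE 0.46, unadjusted P = 0.00400) and SPP1 in IP by -1.85 (SE 0.43, unadjusted P = 0.00212, adjusted P = 0.998). SAA4 was higher by 2.35 (SE 0.68, unadjusted P = 0.00443 by limma). With 1 array left out this difference lay between 1.44, without replicate 3 of siALKBH5#1, and 2.90. The LOX call held without each of the 9 arrays, that of SPP1 was lost without replicate 3 of siALKBH5#3, of SAA4 without any replicate of siALKBH5#3, and of CHAF1B without replicate 1 or 2 of either siRNA.

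With median centring, 7 of 47 genes passed in Sup (background 3.71%) and 4 of 44 in IP (2.16%). An adjusted P under 0.05 was held by 3 genes in Sup, beside 153 of all 39710 RNAs. In IP it was held by 0 genes, beside 2 of 19795 RNAs. The 3 genes in Sup were LOX at -2.68 (SE 0.33, adjusted P = 0.0108 by limma), CHAF1B at -1.79 (SE 0.29, adjusted P = 0.0323) and SAA4 at 2.15 (SE 0.38, adjusted P = 0.0441). COL13A1 was next at -1.51 (SE 0.28, adjusted P = 0.0511), followed by LMO2 at 1.57, SPP1 at -1.58 and BAZ1A at 1.27. In IP the 4 were LOX (-2.74), SPP1 (-2.18), CHAF1B (-2.02) and COL13A1 (-1.90), with adjusted P from 0.174 to 0.41. Leaving out 1 array ended the calls of BAZ1A (any replicate of siALKBH5#3), LMO2 (its replicates 1 and 3), SPP1 in IP (its replicates 2 and 3) and COL13A1 in IP (any of siALKBH5#3, or replicate 1 or 2 of siALKBH5#1), and no other of these.

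**Figure D4:**
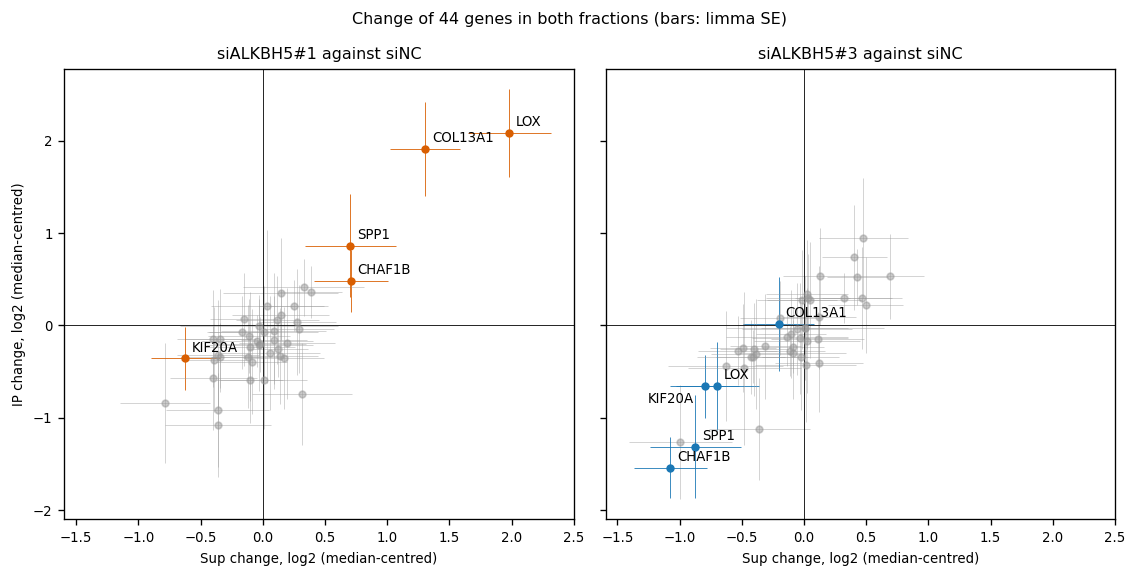
Median-centred log2 change against siNC in IP (y axis) and Sup (x axis) of the 44 genes detected in both fractions, for siALKBH5#1 (left) and siALKBH5#3 (right), with limma SEs as bars and 5 genes named in color. LOX and COL13A1 lie at the upper right with siALKBH5#1, near 2 in IP, and CHAF1B lies lowest with siALKBH5#3, at -1.54 in IP.

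The arrays that stood apart left a shared mark on these genes. For each gene, the median-centred signal of replicate 3 was set against the mean of the other replicates of its group. These deviations had a Pearson's r across genes of 0.762 in Sup (47 genes) and 0.885 in IP (44 genes) between siALKBH5#1 and siNC, and of -0.735 and -0.671 between siALKBH5#3 and siNC. Over 36921 RNAs in Sup and 17282 in IP, r was 0.588 and 0.844, and -0.278 and -0.618, so the mark was not particular to these genes. The coefficients describe genes that share 2 arrays, not independent replicates. In IP the deviation of POLR2A was 3.41 in siALKBH5#1, 0.21 in siNC and 0.30 in siALKBH5#3. Those of CCNA2 were 2.05, 1.23 and 0.05, and those of SPP1 were 1.43, 1.34 and -0.62. In siALKBH5#1 6 of 44 genes were raised by more than 1 in IP, 4 of which were also raised by more than 1 in siNC, and in siALKBH5#3 0 were. The share of all RNAs raised by more than 1 was not counted, so these counts cannot be called unusual.

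**Figure D5:**
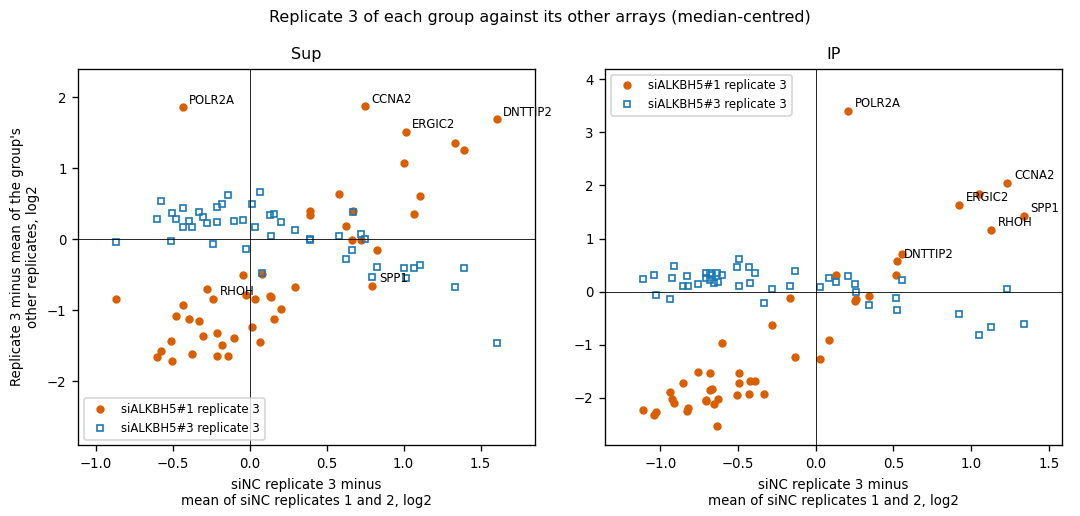
Deviation of replicate 3 from the mean of its group's other replicates, in log2 units after median centring, for siALKBH5#1 (filled circles) and siALKBH5#3 (open squares) on the y axis against siNC on the x axis, in Sup (left) and IP (right), with 1 point per gene. The siALKBH5#1 points follow those of siNC (r of 0.762 and 0.885), apart from POLR2A, and the siALKBH5#3 points fall with them.

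Without both of these arrays, an analysis chosen after the data had been seen, the counts of genes past the threshold were 7 and 5 of 47 in Sup with siALKBH5#1 and siALKBH5#3 (spike-in scaling), beside 6.91% and 6.48% of all RNAs, 3 and 3 of 44 in IP, beside 13.9% and 3.89%, and 0 and 0 in level, beside 2.08% and 0.465%. With median centring they were 6 and 7 in Sup (8.26% and 10.9%), 2 and 4 in IP (7.61% and 5.25%) and 0 and 0 in level (5.10% and 1.20%). LOX then rose with siALKBH5#1 by 2.22 in Sup and 2.34 in IP (median-centred, limma), and COL13A1 by 1.56 and 2.45. In the spike-scaled fit without these arrays every gene shared 1 SE (0.332 in Sup and 0.43 in IP with siALKBH5#1), so its P rests on a spread pooled over all RNAs.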

How the data were processed

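IP and Sup RNA of 9 samples were hybridized to 2-colour arrays. Spot intensity, raw or with the background subtracted, came from the scanner output (Agilent Feature Extraction 11.0.1.1) that the authors deposited. Their list of levels, deposited as a fraction, holds 46 of the 50 genes and served as an alternative. The methods name raw intensity, scaled by the mean of log2 spike-in signals. Here background-subtracted intensity was used instead, scaled by the mean log2 signal of the 13 of 102 spike-in probes well above background on all arrays, and raw median intensity was an alternative. Outlier spots were left out and the log2 values of the others averaged per probe. An RNA passed where over 50% of its spots were well above background on every array, with at least 2 values per group. limma 3.58.1 (R 4.3.3, package data.table, version 1.17.8) was fitted to all passing RNAs with 1 mean per group, P was adjusted by Benjamini-Hochberg over all of them, and the fit was tested on simulated data. Dyes were not swapped.

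The members and lists were chosen with earlier results of these data known, and the roles were regrouped once the gene names were seen. Genes were named for the highest and lowest siNC values, the lowest P, arrays on 1 side of siNC with both siRNAs, and the extreme spot SDs. Others were added for their role or after their values were seen. Of 84 listed writers, erasers, readers, pathway, housekeeping and cell type genes, 0 are among the 50. Deviations of same-numbered arrays correlated between siALKBH5#1 and siNC at 0.601, 0.239 and 0.760 in level, so these numbers were treated as pairs there. For the same groups they were 0.628, -0.0483 and 0.588 in Sup and 0.829, -0.0138 and 0.844 in IP. Numbers 1 and 3 thus shared deviations there and number 2 did not, and the numbers were not treated as pairs. Apart from the fits with a replicate block, the Sup and IP tests of siALKBH5#1 leave this shared part out. Comparisons with siALKBH5#3 held negative values only. Replicates are biological per the labels.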

Additional observations from a re-analysis of the deposited data

Results flagged for a closer look

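Differences between the siRNAs flagged a set of genes, either by the test of siALKBH5#3 against siALKBH5#1 or because their arrays lay on opposite sides of siNC. With spike-in scaling the log2 differences were -2.49 for LOX, -1.59 for CHAF1B and 2.35 for SAA4 in Sup, and -1.85 for SPP1 in IP, each past the threshold of the methods by limma but with adjusted P from 0.969 to 0.998. That of SAA4 was 1.44 without replicate 3 of siALKBH5#1. In median-centred signals, 5 of 47 genes in Sup and 1 of 44 in IP lay on opposite sides of siNC with every array, beside 0.932% and 0.768% of all RNAs. In Sup these were LOX (-2.68), CHAF1B (-1.79), SAA4 (2.15), BAZ1A (1.27) and ZNF195 (0.80), and in IP LOX (-2.74). With spike-in scaling the siALKBH5#1 arrays overlapped siNC in each of these cases, so the pattern depends on the centring. The direction of these differences is fixed by how the genes were picked. Of these, the difference for ZNF195 did not pass (limma unadjusted P = 0.0105). The adjusted P was under 0.05 for LOX, CHAF1B and SAA4 in Sup, beside 153 of all 39710 RNAs in that comparison.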

How the results depend on the processing

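In methylation level, 0 genes passed with either siRNA under every alternative run, the authors' table, the replicate block and each left-out array included. Of the counts of genes past the threshold, the Sup count with siALKBH5#1, which was 1, became 0 with the median signal, normexp, dye-normalized signals, the median of the spike-in probes, the slide as a block, only the groups compared or the methods' t-test, 2 without scaling and 3 with median centring, and between 0 and 5 without 1 array. The Sup count with siALKBH5#3, which was 0, became 1 with median centring, without the filter, with only the groups compared or with the methods' t-test, and lay between 0 and 3 without 1 array. The IP counts, which were 0, became 2 and 1 with median centring and lay between 0 and 2 and between 0 and 1 without 1 array. The highest of these counts each came without replicate 3 of siALKBH5#1. With median centring and without that array, the counts with siALKBH5#1 and siALKBH5#3 were 3 and 7 in Sup and 2 and 5 in IP. Without both arrays that stood apart the counts were 7 and 5 in Sup and 3 and 3 in IP, and with median centring 6 and 7, and 2 and 4. The median level of the genes, 69.8%, was 55.1% without scaling and 54.7% with median centring. The log2 change in level of CENPQ with siALKBH5#1 ranged from -0.44 to 0.0204 without 1 array, and was 0.0204 without replicate 3 of siALKBH5#1, the 1 reversal. The causes were not tested.

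With the replicate block in the 3-group model the counts were 0 and 0 in level, 1 and 0 in Sup (beside 0.199% and 0.486% of all RNAs) and 0 and 0 in IP. With the replicate block in a fit of 2 groups at a time, chosen after seeing the data, they were 3 and 1 in Sup (0.384% and 1.54% of all RNAs) and 2 and 0 in IP (0.168% and 0.985%), and with median centring and the replicate block 3 and 1 (1.13% and 1.76%), and 2 and 1 (0.642% and 0.727%). The replicate block changed no call in level. Of 870 values of single genes under the alternatives, 732 kept direction and side of the threshold, 46 lost and 91 gained a call.

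The spread between arrays limits what can be seen. In simulated data after median centring, log2 changes of 1 and 2 were recovered in Sup for 58% and 90% with siALKBH5#1 and 52% and 95% with siALKBH5#3, and in IP for 36% and 69%, and 36% and 72%. The simulated noise was independent between RNAs, with 1 SD per RNA for all groups, so it lacked the deviations shared by the real arrays. Spike-in scaled tests were not simulated. Their SD between arrays was larger (0.738 in Sup and 1.42 in IP), so these rates do not apply to them. For the level no such rate is given, since rises of that size would exceed 100% for most of the genes.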
